A study of Mus musculus with 6 samples.

Results

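The Ccr7-positive mature dendritic cells of orthotopic pancreatic tumours were a set of 96 cells among 74546 cells (0.129%) in 4 single-cell libraries. They were chosen by measured transcripts. UMIs are molecular tags by which each captured transcript is counted 1 time. Barcodes with 500 or more UMIs, over 200 genes and less than 10% of UMIs from mitochondrial genes were kept as cells. A member held at least 1 UMI of Ccr7, at least 4 UMIs of Ccr7, Fscn1, Ccl22 and Ccl17 together, and at least 2 UMIs of H2-Aa, with C1qa, C1qb and C1qc under 0.2% of its UMIs, S100a8 and S100a9 under 1%, and no UMI of Cd3e or Cd79a. The tumours were grown in wild-type C57BL/6 hosts. The cancer cells came from the KPC line, derived from a genetic mouse model of this cancer that uses Pdx1-cre. They carried either an empty lentiviral vector (OE-Vector) or one for overexpression of mouse MLKL (OE-MLKL), the pseudokinase that ruptures the membrane in necroptosis, so any construct sat in the cancer cells and not in the host's dendritic cells. The labels name 6 tumours, 3 in each group, and the matrices of OE-Vector 1 and of OE-MLKL 1, 2 and 3 were used, while those of OE-Vector 2 and 3 were not analysed here. The labels give the cell type as pancreatic cancer cells, whereas the libraries also held leukocytes.

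Dendritic cells take up antigen in tissues and, once activated, mature: they lower uptake, raise the receptor CCR7, move towards draining lymph nodes along gradients of its ligands, and show antigen to T cells with co-stimulatory ligands and cytokines. In tumours the same program also carries inhibitory ligands such as PD-L1, encoded by Cd274. Conventional type 1 dendritic cells, marked by XCR1 and CLEC9A, are the cross-presenting dendritic cells of tumours and served here as the comparator.

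The 4 libraries held 15382 to 23063 cells and 150591289 to 169978362 UMIs. OE-Vector 1 contributed 38 members, OE-MLKL 1 contributed 4, OE-MLKL 2 contributed 24 and OE-MLKL 3 contributed 30. Members held between 1425 and 96223 UMIs, with medians of 5879.5, 5492, 3520.5 and 6430.5 UMIs in that order of libraries. Barcodes of 3 members were also cells in another library, none of them a member there, against 1215 of all 74546 cells (1.63%). Of the 96 members, 15 carried at least 5 UMIs of the epithelial keratins Krt8 and Krt18. They were large, with a median of 32920 UMIs against 4972 UMIs in the 81 others, and held 58.7%, 85.9%, 38.4% and 51.1% of the member UMIs of the libraries in the same order. A single cell made up the 85.9% in OE-MLKL 1. A doublet score flagged 22 members, of which 12 were among the 15. It flags a preset number of cells per library, in all 11364 of the 74546 cells. That was 12.3%, 14.8%, 18.4% and 14.1% of the cells of the libraries in the same order. The gene tests were therefore repeated with the 81 cells under 5 keratin UMIs, called low-keratin members, and with the same limit on comparator cells. For each gene list below the counts with low-keratin cells stand beside those with all members.

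The label was checked with 12 maturation markers that the gate did not use (Cacnb3, Nudt17, Socs2, Il4i1, Samsn1, Tmem123, Relb, Birc3, Traf1, Cd200, Zmynd15 and Cd83). They were chosen with earlier results of these data known. Comparator cells had to lack Ccr7, so the contrast with them is a description. Levels are given throughout as the mean over cells of a gene's UMIs per 10000 UMIs of the cell. Values separated by commas are for OE-Vector 1 and then OE-MLKL 1, OE-MLKL 2 and OE-MLKL 3. The summed level of the 12 markers was 63.9, 47.6, 57.1 and 69.7, whereas it lay between 2.58 and 4.57 in the comparator cells and between 2.24 and 3.45 in barcodes of at most 100 UMIs, which sample free RNA. Each of the 12 had UMIs in the members. They took a median of 0.744% of the UMIs in low-keratin members but 0.0334% in the 15 keratin-bearing members. The latter median lies within the range of free RNA, and the highest of the 15 was at 0.214%. At the median, the markers thus did not bear out the label in the 15. These cells stay among the members, in the shares and in the tests with all members. Among low-keratin members, 8 of 81 had a UMI of Xcr1 or Clec9a, 1 had a UMI of Cd209a, a marker of type 2 dendritic cells, and 72 had neither. The 11 type 2 markers summed to 5.08, 11.2, 7.01 and 6.64 in low-keratin members, above the 1.41 to 2.43 in comparator cells and the 1.56 to 3.61 in free RNA. The 11.2 rests on 3 cells. In low-keratin members Tnip3 had 63, 3, 26 and 61 UMIs, Mgl2 had 35, 4, 13 and 4, Sirpa had 10, 0, 8 and 11, and 2 of the 11 had none. Of the 4 type 2 markers tested below 1 was higher, Tnip3 (2.74 ± 0.29 on the log2 scale), an inhibitor of NF-kappaB signalling, and with low-keratin cells 2 of 3, Tnip3 and Mgl2.

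Markers of other cells were read without the genes that the gate itself capped or required to be absent. The 7 other T cell markers summed to at most 0.0673 per 10000 in a library, with 4 of them at 0 in all members, and the 5 other B cell markers to at most 0.494. The 8 other macrophage markers summed to 6.25, 3.08, 5.80 and 7.23, close to the 5.53, 3.4, 4.72 and 7.24 in comparator cells and below the 49.5 to 78.5 in free RNA. The 6 other neutrophil markers summed to 1.75, 0.0958, 0.208 and 1.29, against 5.34 to 14.0 in free RNA. The 9 NK and innate lymphoid markers summed to 3.97, 1.36, 3.29 and 3.08, above comparator cells (at most 0.279) and free RNA (0.605 to 2.75), and without Il7r, a receptor described below, the other 8 summed to 0.376, 0, 0.107 and 0.221. The 7 fibroblast markers summed to 2.45, 0.256, 0.773 and 1.18 in members and to 0.510, 0, 0.618 and 0.913 in low-keratin members, against 0.176, 0.448, 0.226 and 0.641 in comparator cells and 4.14 to 5.46 in free RNA. The 8 cancer and epithelial markers summed to 3.83, 2.08, 2.15 and 2.52, and to 2.01, 0, 1.16 and 1.02 in low-keratin members.

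**Figure D1:**
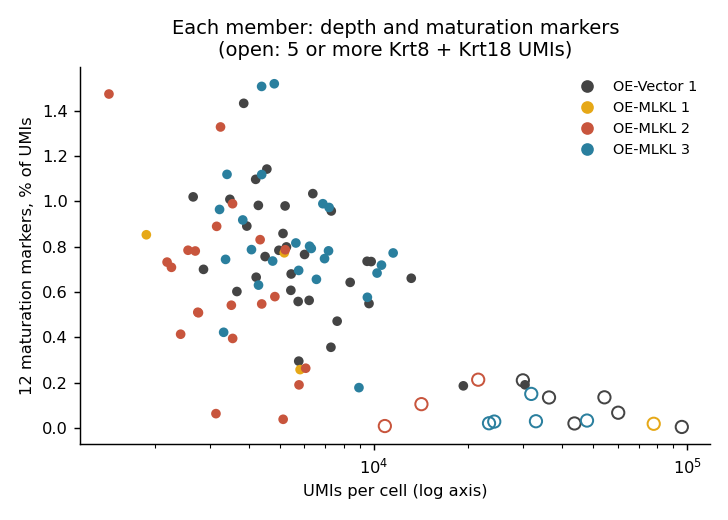
Each point is a member cell, with its UMIs on a logarithmic axis and the share of its UMIs, in percent, in the 12 maturation markers outside the gate. Open points carry at least 5 keratin UMIs, and they sit at high depth and low marker share (median 0.0334%, against 0.744% in the filled points).

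The 4 genes of the gate are described without a test, since they chose the cells. Ccr7, the chemokine receptor for CCL19 and CCL21, lies on the minus strand of chr11:99144196-99155077 (GRCm38, GENCODE M21), with medians of 13.5, 4.5, 5 and 13 UMIs per member. Fscn1, which encodes the actin-bundling protein fascin of dendrites (chr5:142960343-142973185, plus strand), had a median of 9, 3, 3 and 9 UMIs and was detected in 84 of 96 members, and in 16.8% of keratin-bearing cells without H2-Aa. In both genes OE-Vector 1 and OE-MLKL 3 stood above OE-MLKL 1 and OE-MLKL 2. Ccl22 and Ccl17 encode chemokines that attract CCR4-bearing T cells and neighbour each other on the plus strand of chromosome 8, at chr8:94745590-94751699 and chr8:94810453-94812036. Ccl22 was found in 68 members, with medians of 3, 0, 3 and 1.5 UMIs. Ccl17 was found in 44 members, and its level per 10000 was 6.37 in OE-Vector 1, 0.0639 in OE-MLKL 1, 27.3 in OE-MLKL 2 and 2.58 in OE-MLKL 3. OE-MLKL 2 was thus the library with most Ccl17, and 19 of its 24 members held it. The comparator cells, which had to lack Ccr7, held Ccl17 at 2.42, 15.4, 14.0 and 2.33 in the same order, so their Ccl17 was high in OE-MLKL 1 as well.

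**Figure D2:**
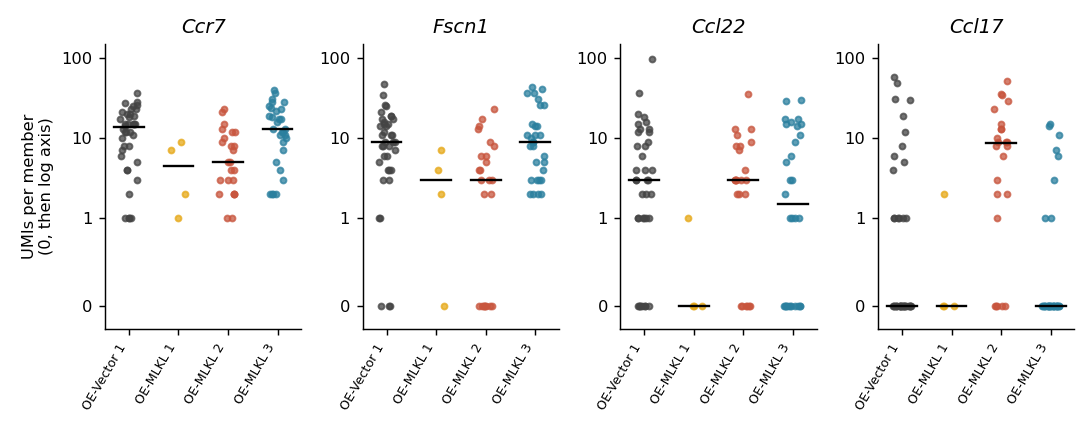
UMIs per member cell of the 4 gate genes by library, on an axis that is linear near 0 and logarithmic above, with a bar at the median. Ccr7 and Fscn1 have medians of 13.5 and 9 in OE-Vector 1 and of 13 and 9 in OE-MLKL 3, and Ccl17 has a median of 8.5 only in OE-MLKL 2 and of 0 in the other 3 libraries.

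Members were not uniform in these genes. Among low-keratin members, 9 lacked Fscn1, 3 in OE-Vector 1 and 6 in OE-MLKL 2, and their 12 maturation markers took a median of 0.414% of UMIs against 0.769% in the 72 with Fscn1. The 36 low-keratin members with Ccl17 and the 45 without it had close marker shares, 0.681% and 0.773%. Most members lay far inside the gate: 85 of 96 held at least 10 UMIs of the 4 genes. Just inside the threshold, 9 members had a sum of 4 to 6 UMIs, a median depth of 24226 UMIs and a maturation marker share of 0.0289%. Just outside it, 128 cells with Ccr7 and a sum of 1 to 3 UMIs had a median depth of 27799 UMIs and a marker share of 0.0193%. The libraries held 38, 10, 3 and 77 of those 128 cells.

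Mlkl itself (ENSMUSG00000012519) was counted first as a check of the labels. Its level over all cells, in CPM (UMIs scaled to equal totals), was 13.7, 8.09, 12.1 and 15.8. The libraries labelled OE-MLKL lay on both sides of the library labelled OE-Vector, and whether the construct's transcript ends in the counted 3′ part of the gene is not given in the sources used here. This level pools all cells, whereas the construct sat in cancer cells. Cells with at least 5 keratin UMIs were 18.7%, 36.8%, 33.1% and 20.6% of the cells. The level therefore cannot decide whether the labels are right. The members held 4, 2, 2 and 4 UMIs of Mlkl, too few for a level. Below, OE-MLKL and OE-Vector mean the libraries labelled so, and with 1 OE-Vector library the group and the single tumour cannot be told apart.

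The first comparison asked how many mature dendritic cells the tumours held. Members were 0.247% of cells in OE-Vector 1 (exact binomial 95% interval 0.175 to 0.339), 0.0217% in OE-MLKL 1 (0.00590 to 0.0554), 0.104% in OE-MLKL 2 (0.0667 to 0.155) and 0.170% in OE-MLKL 3 (0.115 to 0.243), intervals that cover counting error only. All 3 libraries labelled OE-MLKL lay below the one labelled OE-Vector, at a mean of 0.0986% ± 0.0744 (SD, n = 3) and a difference of -0.148 percentage points. A two-sided exact permutation test over libraries gave p = 0.5, and with 1 library against 3 its smallest possible p is 0.25. Of cells with at least 2 UMIs of H2-Aa, members were 1.24%, 0.162%, 1.01% and 0.450%, again with OE-Vector 1 highest (difference -0.698 percentage points, exact permutation p = 0.5). The comparator cells did not follow the same order: Xcr1-Clec9a cells numbered 53, 23, 27 and 147, which was 0.345%, 0.125%, 0.117% and 0.834% of cells. Per comparator cell there were 0.717, 0.174, 0.889 and 0.204 members, so that OE-Vector 1 and OE-MLKL 2 held more mature cells per comparator cell than OE-MLKL 1 and OE-MLKL 3. Differences between groups in these 2 measures had an exact permutation p of 1.0. Cells with at least 5 keratin UMIs were 18.7%, 36.8%, 33.1% and 20.6% of all cells in the libraries, the reverse of the order of the member shares, and the part of the cell makeup of a library in these shares was not tested.

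**Figure D3:**
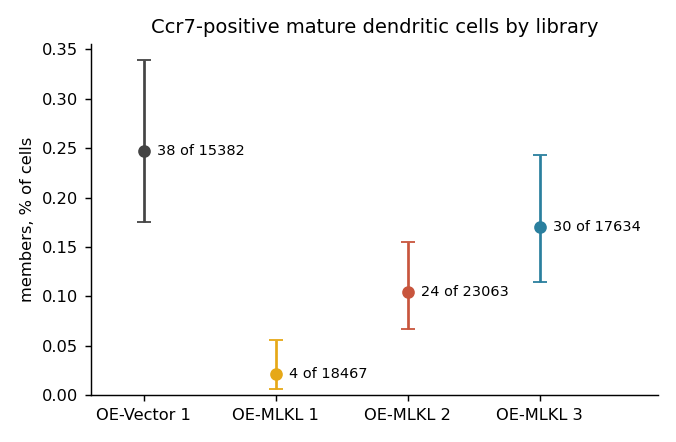
Members as percent of all cells in each library, with exact binomial 95% intervals as bars. OE-Vector 1 is highest at 0.247%, OE-MLKL 1 lowest at 0.0217%, and the interval of OE-Vector 1 (0.175 to 0.339) overlaps that of OE-MLKL 3 (0.115 to 0.243).

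The second comparison asked which genes differed in members between the groups. Sums of UMIs over the members of a library entered edgeR's quasi-likelihood test with Benjamini-Hochberg adjustment, and 5 of 5244 genes tested were called at an adjusted p of 0.05 (0.0953%), all lower in OE-MLKL, against 99 at an unadjusted p under 0.05. DESeq2 and limma-voom called 0. The 5 were Ctrb1, Clps and Try4, which encode digestive enzymes or cofactors of pancreatic acinar cells, Col1a2, a collagen chain of fibroblasts, and Pclaf, a factor of DNA replication. Clps and Try4 had under 100 UMIs and were named after their values were seen. Most UMIs of these genes in OE-Vector 1 came from single cells, where the highest cell held 208 of 209 Ctrb1 UMIs, 81 of 84 Clps UMIs, 98 of 99 Col1a2 UMIs and 56 of 101 Pclaf UMIs. Without the keratin-bearing cells, a setting chosen after seeing the data, 1 of 2573 genes was called. It was S100a10, an annexin partner, with 210 UMIs in the low-keratin members of OE-Vector 1 and 0, 11 and 18 in those of OE-MLKL 1, 2 and 3 (log2 fold change -3.05, edgeR adjusted p = 0.00564). With all members S100a10 was not called (-1.36, edgeR adjusted p = 0.9998). These p-values set 1 tumour against a spread taken from the OE-MLKL libraries alone. Simulated sums of these sizes gave back 40% of 4-fold and 92% of 16-fold changes. The changes were set only in genes with at least 100 UMIs, so sparser genes are not covered.

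Apart from Col1a2, a fibroblast marker, none of the genes in the lists was called between the groups. Chil3, a sparse monocyte marker, had 2, 4, 13 and 15 UMIs in members and was higher in OE-MLKL (log2 fold change 3.87, and 6.16 with low-keratin members). Isg15, a ubiquitin-like protein induced by interferon, went the other way. It had levels of 2.32, 0.0319, 0.654 and 0.839 per 10000, with OE-Vector 1 above all 3 others. Its log2 fold change was -2.39 ± 0.68 (SE) with an edgeR adjusted p of 0.397, and with low-keratin members it was -2.03 with an adjusted p of 0.998. Il12b, the p40 subunit of interleukin-12, had levels of 1.49, 0, 1.96 and 5.79, with the OE-MLKL libraries on both sides of OE-Vector 1 (log2 fold change 0.68, and 0.76 with low-keratin members, not called).

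The third comparison set members beside Xcr1-Clec9a dendritic cells of the same tumours, which had passed the same filters with at least 2 UMIs of Xcr1 and Clec9a and no Ccr7. The genes of either gate were left out of the test. Sums of 92 members and 227 comparator cells were compared within the 3 libraries other than OE-MLKL 1, which left 2 residual degrees of freedom. That library had 4 members and did not enter, but its levels are printed. Of 6060 genes tested, 1519 were called (25.1%), 827 higher in members (13.6%) and 692 lower (11.4%), with a median log2 fold change of 0.02. Of the 1519 genes, 1400 went the same way in the 3 libraries and 1118 also in OE-MLKL 1. These directions are of summed UMIs, and in OE-MLKL 1 a single keratin-bearing cell held 85.9% of the member UMIs. The doublet score flagged 3 of the 4 members there. The same limit holds below wherever genes are said to go the same way in all 4 libraries. With low-keratin cells only (78 and 215 cells), 1237 of 3279 genes were called (37.7%), 629 higher (19.2%) and 608 lower (18.5%), with a median of -0.06. These shares of all genes tested are the background for the counts of every list below. Among 961 genes called first and tested again, 793 were called both times, all with the same sign. The comparator cells were deeper (medians 12913, 6238, 6374 and 10186 UMIs), and without OE-MLKL 3 the count of called genes was 312. Fewer reads of a gene per cell and fewer cells that carry it cannot be told apart in such sums. With type 1 dendritic cells as the only comparator, a difference of maturation and one of dendritic cell type cannot be told apart for any gene. Since cells were chosen as mature or as Xcr1-Clec9a cells, the 12 maturation markers (12 of 12 higher, median log2 fold change 4.21) and the type 1 markers (9 of 10 tested lower, median -3.78) are given as a description of the gates. Some maturation markers are also members of lists below, namely Cd83 (co-stimulation), Cd200, Socs2 and Il4i1 (inhibitory regulators) and Relb, Birc3 and Traf1 (NF-kappaB, and Relb also transcription factors), and their rise there is no separate result. Cacnb3, Samsn1, Il4i1, Socs2 and Cd200 also return among the named genes. The same limit holds for the type 1 markers that return below. These are Irf8 and Batf3 (transcription factors), Tlr3 (antigen uptake) and Itgae, Tlr3 and Naaa (named genes). Of the cancer and epithelial markers 4 were tested and 3 were higher (Krt8, Krt18 and Clu), both fibroblast markers tested were higher as well, and the part of the keratin-bearing cells in other genes is shown by the low-keratin values.

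The 15 named genes with the largest rise in members included the chemokine gene Ccl5. Ccl5, whose product attracts T cells and NK cells, had levels of 48.7, 67.3, 72.2 and 48.3 per 10000, against 0.220, 0.109, 0.202 and 0.396 in comparator cells. The library levels of members all lay above those of comparator cells, and 88 of 96 members held a UMI of Ccl5. Its log2 fold change was 6.56 ± 0.35 (SE; edgeR adjusted p = 5.56e-07), and 7.45 with low-keratin cells. Ccl5 lies on the minus strand of chr11:83525778-83530518. With each low-keratin member and each comparator cell of at least 1000 UMIs thinned to that depth, 82.0%, 98.1%, 91.1% and 81.1% of members and 2.20%, 1.09%, 1.93% and 2.82% of comparator cells would hold it. Unthinned, 93.8%, 100%, 95.2% and 96.0% of members did. Low-keratin members numbered 32, 3, 21 and 25, so that the percentages of OE-MLKL 1 rest on 3 cells. Of 12136 keratin-bearing cells without H2-Aa, at a median of 13277 UMIs, 8.59% held Ccl5.

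Il4i1, a secreted amino acid oxidase, had levels of 3.49, 5.35, 3.36 and 2.92 in members and at most 0.0928 in comparator cells (log2 fold change 6.74 ± 0.41). Fabp5, a fatty acid carrier, had levels of 25.9, 21.8, 15.6 and 11.7 against at most 0.422 (5.26 ± 0.33). Samsn1, an adaptor of lymphocytes, and Cacnb3, a calcium channel subunit, were higher by 5.56 ± 0.33 and 5.21 ± 0.34 on the log2 scale. These genes were higher in members in all 4 libraries. Ramp3, a partner of the receptor for calcitonin-like peptides, was at 6.91, 5.35, 7.62 and 3.75 against at most 0.0379, and the adhesion protein gene Flrt3 at 1.90, 0, 1.18 and 2.38 against at most 0.00436. Arl5c, Arap2, Stat4, Plxnc1, Fam49a, Cd200, Socs2 and Il7r completed the 15. All 15 were called again in low-keratin cells, and 12 of the 15 were higher in all 4 libraries, the exceptions being Flrt3, Arl5c and Arap2, at 0 in the 4 members of OE-MLKL 1.

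Co-stimulatory molecules rose in part. Of 12 listed genes 7 were tested, 4 were higher (Cd40, Cd80, Cd83 and Tnfsf9), 1 was lower (Cd48), and the median log2 fold change was 1.97. With low-keratin cells 3 of 5 were higher and 1 lower, at 2.72. Cd80, a ligand of CD28 and CTLA-4, was at 0.976, 3.76, 1.32 and 2.27 in members and at 0.122, 0.0657, 0.0761 and 0.232 in comparator cells (2.54 ± 0.36, adjusted p = 0.000267 by edgeR, and 3.45 with low-keratin cells). Cd86, the other B7 ligand, was at 0.924, 0, 2.25 and 1.71 against 1.47, 0.658, 0.808 and 1.74, and the library levels of both kinds of cells overlapped (log2 fold change -0.56 ± 0.38, edgeR adjusted p = 0.331, and 0.21 with low-keratin cells). Cd40, the receptor for T cell help, was higher by 2.29 ± 0.40, though at 0 in the 4 members of OE-MLKL 1. Cd70, the ligand of CD27, was too sparse to be tested: 14 of 96 members held it, 3 in OE-Vector 1, 5 in OE-MLKL 2 and 6 in OE-MLKL 3, and 0 of 250 comparator cells, which allows up to 1.2% of cells with a UMI of Cd70. In keratin-bearing cells without H2-Aa 0.0247% held Cd70.

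Inhibitory ligands and regulators rose in 7 of 15 tested genes (Cd274, Pdcd1lg2, Cd200, Fas, Socs2, Aldh1a2 and Il4i1), and 2 were lower, at a median of 0.86. With low-keratin cells 5 of 10 were higher and 1 lower, at 1.79. Cd274, which encodes PD-L1, was at 4.31, 5.88, 2.12 and 4.43 in members and at 0.330, 0.262, 0.237 and 0.850 in comparator cells, and these library levels did not overlap. Its log2 fold change was 2.27 ± 0.29 (edgeR adjusted p = 0.000137) and 3.17 with low-keratin cells. After thinning to 1000 UMIs, Cd274 would be held by 30.9%, 51.5%, 21.1% and 38.8% of low-keratin members and 3.21%, 2.54%, 2.37% and 6.58% of comparator cells, against 8.74% of the deeper keratin-bearing cells without thinning. The 51.5% in OE-MLKL 1 rests on 3 cells. Cd200, whose receptor dampens myeloid cells, was at 2.27, 9.51, 4.75 and 4.62 against at most 0.25 (4.36 ± 0.40). Socs2, an inhibitor of cytokine signalling, was at 3.54, 3.28, 6.37 and 5.58 against at most 0.203 (5.96 ± 0.33), and 19.2% of keratin-bearing cells without H2-Aa held it. Havcr2, which encodes the checkpoint receptor TIM-3 of type 1 dendritic cells, went the other way, at 0.0250, 0, 0.213 and 0.0372 in members and between 0.904 and 1.93 in comparator cells (-4.39 ± 0.48). Its fall cannot be told apart from a difference of cell type. Vsir was the other gene that was lower. Aldh1a2, Fas and Vsir were not tested with low-keratin cells.

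Cytokines rose in 4 of 6 tested genes (Il12b, Il15ra, Csf1 and Vegfa) and fell in none, at a median of 1.61. With low-keratin cells 3 of 3 tested genes were higher (Il12b, Il15ra and Il1b), at 3.49, and Csf1 and Vegfa were too sparse to be tested. Csf1 had 19, 29, 4 and 23 UMIs in all members and 0, 0, 1 and 4 in low-keratin members, and Vegfa had 34, 4, 3 and 31 against 8, 0, 1 and 7, so that most of their UMIs lay in keratin-bearing cells. Il12b lies at chr11:44400063-44414033 on the plus strand and was found in 30 members, 9 in OE-Vector 1, none in OE-MLKL 1, 7 in OE-MLKL 2 and 14 in OE-MLKL 3. Its levels of 1.49, 0, 1.96 and 5.79 compared with 0.171, 0, 0.0805 and 0.242 in comparator cells (3.58 ± 0.33, edgeR adjusted p = 1.43e-05, and 4.46 with low-keratin cells). Of keratin-bearing cells without H2-Aa 0.00824% held Il12b. Il15ra, which presents interleukin-15 to lymphocytes, was higher by 2.74 ± 0.32, and by 3.49 with low-keratin cells. Of the chemokines, 8 were tested and 2 were higher, Ccl5 and the neutrophil attractant Cxcl3, while Ccl4 was lower (-2.62 ± 0.32), at a list median of 0.31. Among all genes tested 13.6% were higher and 11.4% lower. Cxcl3 had 73, 4, 7 and 13 UMIs in all members and 7, 0, 1 and 3 in low-keratin members, where it was not tested. There 2 of 5 chemokines were higher (Ccl5 and Cxcl16) and 1 lower, at 0.73. Ccl4 was at 0.289, 0, 0.292 and 0.2 in members, below its 0.732 to 4.17 in free RNA.

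**Figure D4:**
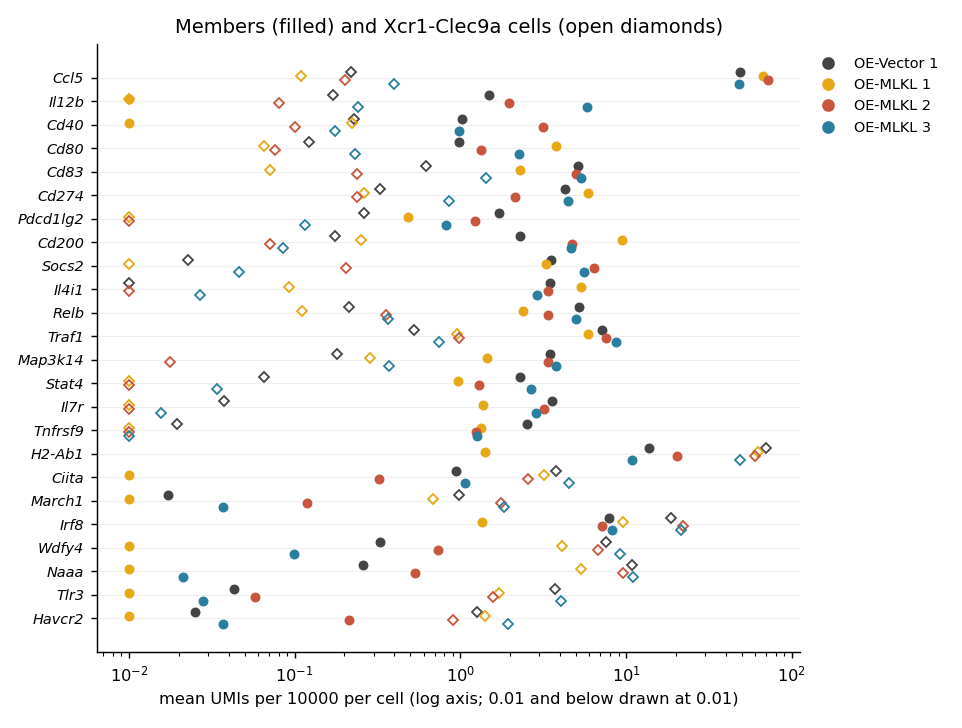
Mean UMIs per 10000 of 24 genes in members (filled circles) and Xcr1-Clec9a cells (open diamonds), 1 symbol per library, on a logarithmic axis with values of 0.01 or less drawn at 0.01. Ccl5 sits between 48.3 and 72.2 in members and at most at 0.396 in comparator cells, while Naaa sits at most at 0.530 in members and between 5.36 and 10.9 in comparator cells.

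Some receptors of cytokines rose. Of 22 tested genes 7 were higher (Il7r, Il2ra, Il21r, Il2rg, Tnfrsf1b, Il1rn and Tgfbr1) and 2 lower (Flt3 and Crlf2), at a median of 0.30. With low-keratin cells 7 of 15 were higher and 1 lower, at 0.07. Il21r and Tgfbr1 were not tested there, and Tgfbr1 had 50, 1, 7 and 34 UMIs in all members but 5, 0, 4 and 4 in low-keratin members. Il1rn encodes a secreted antagonist and not a receptor. Il7r, the receptor chain for interleukin-7 and TSLP, was at 3.59, 1.36, 3.18 and 2.86 in members and was found in 2 of 250 comparator cells. Il2ra, the high-affinity chain of the interleukin-2 receptor, was at 0.533, 0, 0.764 and 1.15 against at most 0.0210 (4.97 ± 0.61). Flt3, the growth factor receptor of dendritic cells, was lower (-1.03 ± 0.30, edgeR adjusted p = 0.0212), but not with low-keratin cells (-0.22, adjusted p = 0.51). Crlf2 was not called with low-keratin cells either (-0.62, edgeR adjusted p = 0.228). In the TNF receptor family 5 of 6 tested genes were higher and none lower, at a median of 1.6, and 4 of 4 with low-keratin cells. Of this list, Tnfrsf12a had 45, 21, 16 and 19 UMIs in all members and 4, 0, 1 and 3 in low-keratin members. Tnfrsf21 had 22, 2, 2 and 21 against 2, 0, 0 and 1, so that most UMIs of both lay in keratin-bearing cells. Tnfrsf9, which encodes the receptor 4-1BB, was at 2.52, 1.33, 1.24 and 1.26 in members and had 2 UMIs in all comparator cells, while 5.54% of keratin-bearing cells without H2-Aa held it.

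Most genes of the NF-kappaB pathway rose. The canonical arm works through RelA, c-Rel and p50, and the alternative arm through the kinase NIK, encoded by Map3k14, which frees RelB with p52. Of 21 tested genes 16 were higher and 1 lower, at a median of 1.35, and of 17 tested with low-keratin cells 15 were higher and none lower, at a median of 2.05. Relb was at 5.21, 2.37, 3.36 and 4.99 in members and at 0.213, 0.111, 0.357 and 0.365 in comparator cells (3.03 ± 0.26). Map3k14 was at 3.45, 1.45, 3.36 and 3.80 against at most 0.369 (3.14 ± 0.35). Rel was at 7.08, 2.40, 6.50 and 13.6 against 1.08, 0.406, 0.566 and 2.01 (2.13 ± 0.28). In these 3 genes members stood above comparator cells in all 4 libraries. The precursor of p52, Nfkb2, was higher by 1.89 ± 0.27 and the precursor of p50, Nfkb1, by 0.62 ± 0.22, the latter short of the threshold (edgeR adjusted p = 0.0586) but past it with low-keratin cells (1.39, adjusted p = 5.09e-05). Birc2 and Traf1, which hold NIK in check or bind TNF receptors, were higher by 3.25 ± 0.30 and 2.76 ± 0.23. The inhibitors Nfkbia, Nfkbib, Nfkbie and Tnfaip3 were higher as well, by 1.14 to 1.63. Chuk, a kinase subunit, was the gene that was lower (-0.84), and with low-keratin cells its adjusted p was 0.223 by edgeR.

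The promoters of these genes were searched for the NF-kappaB consensus (kappaB) motif on both strands of the 250 bases before the start site, using RefSeq promoters of GRCm38.p6. Genes with several promoter entries, for different start sites, counted as holding a match if any entry did. Of 14 pathway genes called higher that had a promoter entry, 8 held a match (57.1%), as did 8 of the 18 pathway genes tested (44.4%), 546 of 4894 genes tested (11.2%) and 2225 of 27018 genes (8.24%). Among all genes called higher, 108 of 660 held one (16.4%), among those called lower 59 of 547 (10.8%), and among the named genes that were higher 1 of 10 (10.0%). A match is a description of letters and not of binding. Rel, Nfkb2 and Tank are shown because they had the largest log2 fold changes among the pathway genes called higher in both fits with a match. For each gene the first promoter entry with a match is printed. The entries of Nfkb2 and Tank lie inside the genes as annotated, which begin at chr19:46304320 and chr2:61578585. The sequences read 5′ to 3′ on the strand of the gene with the matches in capitals, for Rel at chr11:23770970-23771219 (minus), Nfkb2 at chr19:46304487-46304736 (plus) and Tank at chr2:61592847-61593096 (plus):
Rel: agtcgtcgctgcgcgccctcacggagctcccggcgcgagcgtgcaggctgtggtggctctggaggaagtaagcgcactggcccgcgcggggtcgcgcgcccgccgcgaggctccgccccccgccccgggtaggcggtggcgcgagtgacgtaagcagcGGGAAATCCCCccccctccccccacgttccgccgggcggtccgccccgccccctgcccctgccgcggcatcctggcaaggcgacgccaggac
Nfkb2: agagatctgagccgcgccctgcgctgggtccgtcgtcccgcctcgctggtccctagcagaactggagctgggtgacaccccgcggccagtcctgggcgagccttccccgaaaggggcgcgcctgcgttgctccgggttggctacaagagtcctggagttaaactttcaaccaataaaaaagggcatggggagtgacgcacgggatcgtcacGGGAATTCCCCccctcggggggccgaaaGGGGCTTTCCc
Tank: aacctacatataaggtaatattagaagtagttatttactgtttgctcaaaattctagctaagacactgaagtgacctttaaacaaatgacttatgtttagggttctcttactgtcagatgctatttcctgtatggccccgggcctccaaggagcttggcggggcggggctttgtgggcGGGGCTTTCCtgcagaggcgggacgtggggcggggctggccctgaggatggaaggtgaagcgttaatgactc
Overlapping matches and matches on both strands counted apart, the Rel promoter held 3, the Nfkb2 promoter 4 and the Tank promoter 1. Nfkbia, Tnfaip3 and Nfkbie also held a match and were higher in both fits.

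Genes of MHC class II presentation were lower. Of 13 tested genes 10 were lower and 1 higher (Lgmn, a lysosomal protease), at a median of -1.69, and with low-keratin cells 8 were lower and 3 higher, at -0.98. H2-Ab1, the beta chain of I-A, was at 13.7, 1.41, 20.2 and 10.8 in members and at 69.9, 62.2, 60.2 and 48.9 in comparator cells, and these library levels did not overlap (-2.25 ± 0.25). Of its 564, 5, 217 and 251 UMIs in members, low-keratin members held 529, 3, 176 and 191. Keratin-bearing cells held 38.4% to 85.9% of all member UMIs and so a smaller part of those of H2-Ab1. With all members, fold changes are of sums that include these cells. Cd74, the invariant chain, was at 52.3, 13.8, 67.9 and 42.5 against 151, 146, 116 and 121 (-1.6 ± 0.25). Ciita, the transactivator of class II genes, was at 0.936, 0, 0.321 and 1.07 against 3.77, 3.20, 2.58 and 4.55 (-2.49 ± 0.25). March1 encodes the ubiquitin ligase that removes class II molecules from the surface of immature cells. It was at 0.0173, 0, 0.120 and 0.0372 in members against 0.984, 0.680, 1.75 and 1.83 (-4.50 ± 0.47). H2-Aa, the alpha chain used by both gates, was at 24.3, 22, 41.4 and 25.6 in members against 53.2, 72.4, 54.8 and 56.0. H2-DMb2 and H2-Oa did not pass the threshold with low-keratin cells (-0.13 and -0.88).

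Of 21 MHC class I genes tested 7 were higher and 3 lower (Tap1, Pdia3 and Psmb9), at a median of 0.19, and with low-keratin cells 9 of 20 were higher and 2 lower, at 0.79. The part that was lower is near the share among all genes tested, 11.4%, and 18.5% with low-keratin cells. B2m, the shared light chain, was at 35.8, 29.8, 23.3 and 34.2 in members and 12.9, 12.7, 10.1 and 12.9 in comparator cells (1.02 ± 0.18). B2m in free RNA was at 8.74 to 20.8. The near-identical H2-Q4, H2-Q6 and H2-Q7 were higher by 1.15 to 1.81, but counts may be split among such copies. Tap1 was lower (-1.12), and with low-keratin cells its adjusted p was 0.142 by edgeR.

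Genes of antigen uptake and pattern recognition fell in 5 of 15 tested and rose in 2, at a median of -0.35, where 11.4% of all tested genes fell and 13.6% rose. Tlr3, the endosomal sensor of double-stranded RNA, was at 0.0433, 0, 0.0578 and 0.0279 in members and at 3.72, 1.72, 1.57 and 4.02 in comparator cells (-5.03 ± 0.40). Because Tlr3 is also a marker of the comparator's cell type, its fall describes the gates. The scavenger receptor gene Cd36 (-4.10 ± 0.45) and the lectin gene Clec12a (-3.79 ± 0.34) were lower too. Ly75, which encodes the uptake receptor DEC-205, was one of those that were higher (1.49 ± 0.30), beside the oxidase subunit gene Cybb. With low-keratin cells 5 of 11 were higher and 4 lower, at a median of 0.26, so that the sign of the median changed while none of the genes named here changed sign.

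The 15 named genes with the largest fall in members were Txndc16, Gpr82, Sept3, Hepacam2, Gna15, Pianp, Plet1, Cd180, Ffar4, Sult1a1, Qpct, Itgae, Tlr3, Naaa and Rtl8b. Of these, Itgae, Tlr3 and Naaa are markers of the comparator's cell type, and their fall describes the gates. For the others too, maturation and cell type cannot be told apart. Txndc16 and Gpr82 had 0 UMIs in members, which allows up to 0.0280 per 10000 over their 1072723 UMIs, and levels of 0.890 to 2.27 and of 0.256 to 0.795 in comparator cells. Naaa, a lysosomal amidase, was at 0.257, 0, 0.530 and 0.0213 in members and at 10.8, 5.36, 9.61 and 10.9 in comparator cells (-4.98 ± 0.42). Itgae, the integrin chain CD103, was at 0.0879, 0.430, 0.210 and 0.0779 against 3.08 to 3.98 (-5.13 ± 0.41). All but Rtl8b were lower in all 4 libraries. Gpr82 and Hepacam2 were not tested with low-keratin cells, and the other 13 were called again.

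Transcription factors of dendritic cells went both ways. Of 25 tested 11 were higher and 5 lower, at a median of 0.50, and with low-keratin cells 13 of 24 were higher and 4 lower, at 0.86. Stat4, the signal transducer for interleukin-12, was at 2.31, 0.967, 1.3 and 2.68 in members and at most at 0.0652 in comparator cells (4.76 ± 0.41). Ikzf4, a zinc finger factor, and the orphan nuclear receptor gene Nr4a3 were higher too, Nr4a3 by 2.94 ± 0.33 although at 0 in OE-MLKL 1. Irf8, which specifies type 1 dendritic cells, was at 7.84, 1.34, 7.2 and 8.18 against 18.7, 9.59, 22 and 21.5 (-1.97 ± 0.21). Its partner Batf3 was at 2.65, 2.36, 2.56 and 2.51 in members against 2.50, 1.24, 1.22 and 1.91, so that its mean per cell was higher in members in all 4 libraries. The test on sums, in which deep cells weigh more, gave -0.21 ± 0.29 (edgeR adjusted p = 0.654) and, with low-keratin cells, 0.59 (adjusted p = 0.0506), and neither passed the threshold.

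Genes of migration and the cytoskeleton rose in 12 of 18 tested and fell in 2 (Itgax and Tmsb10), at a median of 1.44, and with low-keratin cells in 12 of 17 with 2 lower, at 1.94. Plxnc1 and Sema7a, which encode a receptor and its ligand, were higher by 4.71 ± 0.34 and 2.88 ± 0.36. Marcksl1, an actin regulator, was at 7.01, 6.63, 5.91 and 9.04 against at most 0.872 (2.77 ± 0.26), and the membrane-binding gene Anxa3 was higher by 3.08 ± 0.30. Genes of survival and death rose in 7 of 18 tested and fell in none, at 0.68, and with low-keratin cells rose in 9 of 12, at 1.65. Serpinb9, an inhibitor of granzyme B, was at 7.85, 6.18, 6.75 and 11 against 1.54, 0.421, 1.70 and 1.80 (1.67 ± 0.23). The near-identical Bcl2a1b and Bcl2a1d were higher by 1.75 and 1.07, with the same limit on copies as above.

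Cell cycle genes fell in 15 of 20 tested and rose in none, at a median of -1.52. Mki67, a marker of cycling cells, was at 0.553, 0.830, 0 and 0.489 in members and at 1.69, 0.378, 1.78 and 2.41 in comparator cells (-1.93 ± 0.43), with OE-MLKL 1, where 1 keratin-bearing cell held all 26 UMIs, the library that went the other way. With low-keratin cells 10 of 11 were lower, at -1.61. Of glycolytic genes 3 of 14 were lower (Gpi1, Pfkp and Ldha) and none higher, at -0.56, and with low-keratin cells 6 of 11, at -0.81. The share lower among all genes tested was 11.4%, and 18.5% with low-keratin cells.

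Genes induced by interferon rose in part. Of 8 type I genes tested 4 were higher (Isg15, Isg20, Oasl2 and Ifi47) and none lower, at 0.89, and of these 4 only Isg15 was tested with low-keratin cells (2.47, called), where 2 of 4 genes were higher, at 0.44. Of the guanylate-binding and related GTPases, induced by interferon gamma, 5 of 8 were higher (Gbp2, Gbp3, Gbp4, Gbp5 and Gbp7), at 2.04. Gbp3 had 43, 1, 6 and 36 UMIs in all members and 15, 0, 4 and 6 in low-keratin members, so that most lay in keratin-bearing cells. Gbp2 was at 4.21, 0.0639, 2.81 and 3.43 in members against 1.1, 0.751, 0.617 and 0.912 (2.03 ± 0.27), and free RNA held it at 1.23 to 3.70. With low-keratin cells 3 of 4 GTPase genes were higher and Iigp1 was lower (-1.82), although with all members it was at 0.36 and not called. These genes are similar in sequence, and counts may be split among them. Lysosomal genes went both ways, with 3 of 15 higher and 5 lower, at a median of 0.15, and with low-keratin cells 5 of 13 were higher and 2 lower, at 0.26. Among all genes tested 13.6% were higher and 11.4% lower, and with low-keratin cells 19.2% and 18.5%. Psap, the saposin precursor, was at 6.83, 4.83, 5.07 and 4.41 against 37.1, 15.2, 25.6 and 35.8 (-2.67 ± 0.23), whereas Lamp1 was higher by 1.98 ± 0.24. In the apolipoprotein L family no gene had enough UMIs to be tested, and Apol7c was found in 8 members of OE-Vector 1 and 1 of OE-MLKL 3 and in 0 of 250 comparator cells, which allows up to 1.2% of cells with a UMI of it. In keratin-bearing cells without H2-Aa 0.0577% held Apol7c.

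**Figure D5:**
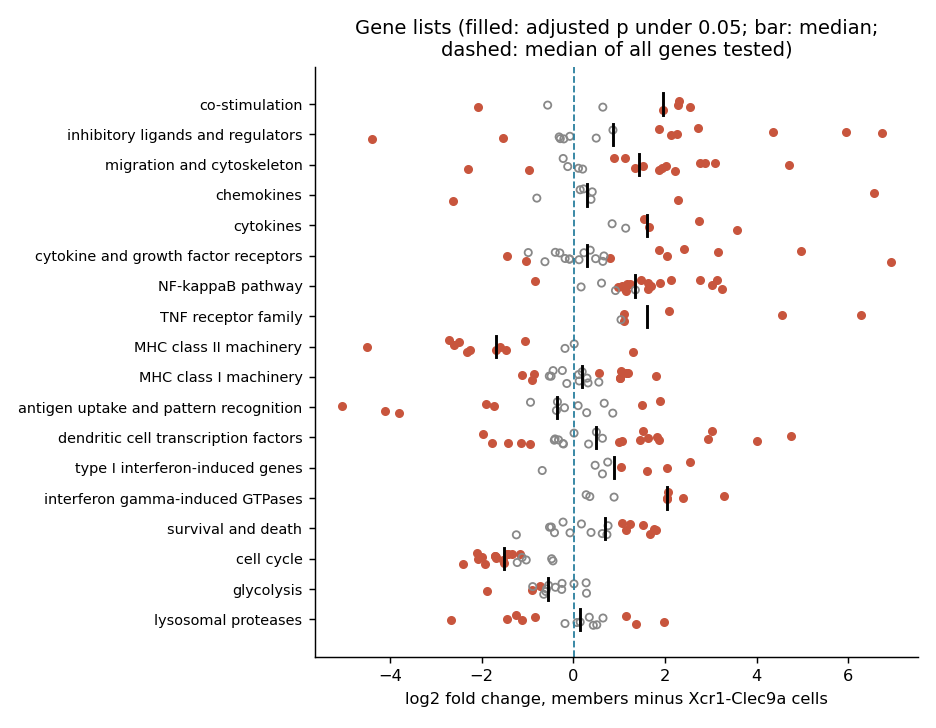
Log2 fold changes of members against Xcr1-Clec9a cells for the tested genes of each list, with filled points at an adjusted p under 0.05, a bar at the list median and a dashed line at the median of all 6060 genes (0.02). The NF-kappaB list (16 of 21 higher) lies above the line, and the MHC class II (10 of 13 lower) and cell cycle (15 of 20 lower) lists lie below it.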

How the data were processed

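Raw UMI counts of each gene in each barcode were deposited by the authors, from droplet-based 3′ single-cell RNA sequencing, with neither filter nor normalisation, for 32285 genes. Submitters' processing notes name Cell Ranger 2.1.1 and mm10, other versions stand in the methods and file headers, and whether introns were counted is not given in the sources used here. Groups were taken from the labels, and nothing says whether the tumours came from separate batches.

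Members and comparator cells were gated on UMIs and counted per library. An exact permutation test over libraries (two-sided) compared shares. Sums of UMIs per library and gate entered the quasi-likelihood test in edgeR 4.0.16 (R 4.3.3, TMM, filterByExpr, Benjamini-Hochberg at 0.05 over all genes tested), with the library as a term between gates and only libraries with at least 10 cells in both gates. The methods of the study name the 'bimod' test in Seurat for differential expression of each cluster of cells. Here cells were not taken as replicates. Standard errors were derived from the F statistic. Alternatives used DESeq2 1.42.0, limma-voom (limma 3.58.1), other filters, a doublet score (simulated doublets among 50 neighbours in 30 components, 0.8% removed per 1000 cells), thinning to 1000 UMIs and leaving out libraries. Leaving out cells with at least 5 keratin UMIs was chosen after seeing the data. Shares of cells after thinning are expected values. Other steps ran in Python 3.11.15 with numpy 2.4.6 and scipy 1.17.1.

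Members and gene lists were chosen with earlier results of these data known. Besides listed genes, the 15 genes per direction with the largest change were named, among those called, with at least 100 UMIs and changed the same way in every library of the fit. Gm, Rik and mitochondrial genes were skipped. Gene positions came from GENCODE M21, which held 32235 of the 32285 identifiers. The tests were tried on simulated sums: between gates, 100% of 4-fold changes were recovered among 5621 genes, and between groups 40% among 4558 genes. Changes were set only in genes with at least 100 UMIs, and recovery of sparser genes was not tested.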

Additional observations from a re-analysis of the deposited data

How the results depend on the processing

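Without 1 OE-MLKL library the difference in member share between the groups was -0.184 to -0.110 percentage points. Its sign could not change there, because OE-Vector 1 lay above each OE-MLKL library. In the other settings the sign was kept, at -0.124 without doublets, -0.172 with at least 1000 UMIs, -0.140 with a marker sum of at least 6 and -0.142 without keratin-bearing cells. Genes called between OE-MLKL and OE-Vector were 5 as reported, 12 with all genes of at least 1 UMI, 1 without keratin-bearing cells and 0 without doublets, with a marker sum of at least 6, with cells thinned to 1000 UMIs (599 genes tested), with a mean of 20 UMIs per sum, with DESeq2 and with limma-voom, and 0 to 6 without 1 OE-MLKL library (0 without OE-MLKL 1, 6 without OE-MLKL 2 and 2 without OE-MLKL 3). Unadjusted p-values under 0.05 then numbered 105, 125, 15, 28, 29 and 260 for the settings with 0 calls in the order given, and 200 without OE-MLKL 1. Genes called between members and Xcr1-Clec9a cells were 1519, and 846 without doublets, 170 with thinned cells (472 genes tested), 783 with DESeq2 and 2141 with all genes of at least 1 UMI. Without the library as a block, since both gates share a tumour, they were 990. They were 312 to 2378 without 1 library (868 without OE-Vector 1, 2378 without OE-MLKL 2 and 312 without OE-MLKL 3). Library size scaling and limma-voom gave 897 and 1090 higher genes and 665 and 765 lower ones. Of 189 named or listed genes called, none changed sign under the alternatives run. DESeq2 kept 147 calls, the doublet setting 137 of 155 tested, the keratin setting 140 of 153, the fit without the block 156 and the fit without OE-MLKL 3 93 of 182, and the cause of the losses was not tested. No paired analysis was run, since the labels do not match tumours of OE-MLKL with tumours of OE-Vector. The comparison with Cd209a dendritic cells was not run, since these numbered 14, 0, 3 and 5 and 1 library alone had 10 cells in both gates. OE-MLKL 1 had 91129 member UMIs, mostly from 1 cell, and how much depth or the lone OE-Vector library limited the group comparison cannot be told apart.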
